A study of Macaca mulatta with 16 samples.

Results

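The abundant long noncoding RNA (lncRNA) genes of the rhesus macaque heart were the rows that the gene table classes as lncRNA and whose CPM (the count divided by the column total and scaled to 1e+06) averaged at least 5 over 16 libraries. The rule gave 131 genes of 1640 lncRNA rows and of 19425 genes in all, after 2 rows in the ribosomal DNA were left out. It used the mean over all libraries, so the order of the genes by mean level is a description. ENSMMUG00000057269 was just inside the limit with a mean of 5.03 CPM, and ENSMMUG00000057542 was just outside it with 4.93 CPM. The libraries came from formalin-fixed, paraffin-embedded cardiac tissue of 8 macaques. RNA of each animal was extracted once by Method QE, the Qiagen AllPrep DNA/RNA FFPE kit with extra ethanol washes after xylene, and once by Method BL, the CELLDATA RNAstorm FFPE kit with a longer lysis step, which gave 8 libraries per method and 8 pairs. The extract protocol in the labels names the Qiagen kit for all 16 samples, which the other labels of the Method BL group do not bear out. The animals belong to a study of right ventricular pressure overload, and the labels give no age, sex, treatment or heart chamber, so differences between animals can hold any of these.

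Long noncoding RNAs are transcripts that are not known to be translated. Many stay in the nucleus, where they take part in chromatin regulation, X inactivation, imprinting and the assembly of nuclear bodies, and some serve mainly as precursors of small nucleolar RNA (snoRNA) or microRNA. Others start next to a coding gene and run in the opposite direction from the same regulatory region.

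Only 13 of the 131 genes had a symbol, 2 of them in the table itself, 2 in a table of gene names and 9 by the RefSeq gene they match. The other 118 are given by their Ensembl identifiers, with the RefSeq gene at the same place where there is one. None of 56 known lncRNA symbols, a list that holds the well-studied nuclear and imprinted transcripts, stood in the table as a symbol, and 1 of the 131 genes lay over a RefSeq gene from that list, H19. This search was by symbol only. Known lncRNA genes can be among the 118 without a symbol and not be found by it. No lncRNA gene overlapped a coding gene of the table by Start and Stop, but 28 stood within 2 kb of one in divergent orientation, 15 on the same strand and 1 in convergent orientation, and 87 had none within 2 kb. RefSeq placed the same genes differently. On the same strand, 15 had the span of a RefSeq coding gene, 33 lay inside one, 11 lay partly over one, 6 lay over a pseudogene only, 41 over a lncRNA gene only, and 25 had no RefSeq gene. Coding sequence of RefSeq lay inside 34 of the 131, so for these the class in the table goes against RefSeq. The spans ran from 1130.0 to 305105 bases with introns (median 7093).

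Several of the genes are best described by their sequence, read from the RefSeq copy of Mmul_10 in 5′ to 3′ direction of the named gene. Of the 31-base words of ENSMMUG00000055687, 94.6% also occurred in the mitochondrial genome on either strand. The share was 89.5% for ENSMMUG00000049855 and 45.7% for ENSMMUG00000028689, and it was 0 for the other 128 genes. The longest exact match of ENSMMUG00000055687 ran over 626 bases on the strand opposite to ND2, and that of ENSMMUG00000028689 over 1417 bases on the strand opposite to ND3, ND4L and ND4. That of ENSMMUG00000049855 ran over 1548 bases on the same strand as ND1 and ND2. The first 60 bases of the matches on the opposite strand are shown because they could come from either genome. They are ENSMMUG00000055687 at chr14:39885639-39885698 and ENSMMUG00000028689 at chr2:68783447-68783506, both on the plus strand of the chromosome.
ENSMMUG00000055687: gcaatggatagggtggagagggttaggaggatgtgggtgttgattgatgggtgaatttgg
ENSMMUG00000028689: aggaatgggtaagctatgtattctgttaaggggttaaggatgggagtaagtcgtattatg

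ENSMMUG00000049776 on chromosome X lies over the RefSeq lncRNA gene LOC106995248 and holds the microRNA genes MIR545 and MIR374A. Their mature sequences are shown with the seed, bases 2 to 8, in capitals, and the 3 seeds differ.
mml-miR-545 (chrX:71376451-71376472): uCAGCAAAcauuuauugugugc
mml-miR-374a-3p (chrX:71376622-71376643): cUUAUCAGauuguauuguaauu
mml-miR-374a-5p (chrX:71376652-71376673): uUAUAAUAcaaccugauaagug

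Short gaps separated some of the genes from a coding gene, and 3 of them beside genes described below are shown. The gap between ENSMMUG00000055581 and PDCD2, which start in opposite directions, and the part of the gap between ENSMMUG00000064749 and PCBP1 outside RefSeq exons are written in the direction of the coding gene with CG dinucleotides in capitals. The gap between ENSMMUG00000050133 and the table's UTRN, which run on the same strand, is shown with its last 2 bases in capitals. The RefSeq UTRN gene extends over ENSMMUG00000050133 at least in part, and a RefSeq exon of UTRN starts at the base after the gap.
PDCD2 gap (chr4:71518-71646): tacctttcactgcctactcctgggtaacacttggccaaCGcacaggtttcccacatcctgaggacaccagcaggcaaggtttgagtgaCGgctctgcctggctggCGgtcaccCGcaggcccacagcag
PCBP1 gap, part (chr13:38681415-38681448): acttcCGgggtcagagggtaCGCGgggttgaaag
UTRN gap (chr4:48072352-48072371): actttcccttttccttttAG
The whole gap of 112 bases at PCBP1 held 17 CG, and 10.7% of the windows of that length before the starts of 17134 coding genes held at least as many. Searched on both strands, it also held GGGCGG, which 35.7% of these windows hold, and CCGGAAG, which 6.49% hold. The PDCD2 gap of 129 bases held 4 CG, a number reached by 68.5% of windows of its length, and it held neither GGGCGG (in 38.1% of the windows) nor CCGGAAG (in 7.05%). These are matches of letters only.

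A few genes held most of the reads. From here on, CPM is scaled by TMM factors so that libraries can be compared, and it is not divided by length, so the order of the genes is one of read shares. Mean CPM used to order, group or correlate genes is the unscaled CPM of the rule. The most abundant gene held 23.96% of all counts of the 131 genes, the first 3 held 43.2% and the first 12 held 60.01%. ENSMMUG00000058532 (chr14:9097368-9106174, minus strand), over the RefSeq lncRNA gene LOC106993196 and nearest to FRMD8, ran from 648 to 1030.0 CPM (median 787) with Method QE and from 603 to 1206 CPM (median 881) with Method BL. Its groups overlapped, and the difference did not pass the test (log2 fold change -0.16, SE 0.08, adjusted p = 0.332). ENSMMUG00000064479 (chr14:2071665-2073086, minus strand) lies inside the RefSeq gene H19, an imprinted lncRNA that is high in fetal tissues. It ran from 131 to 834 CPM (median 339.8) with Method QE and from 152 to 1108 CPM (median 349.9) with Method BL, and both groups covered nearly the same range (log2 fold change -0.15, SE 0.14, adjusted p = 0.608). The coding gene IGF2, the imprinted neighbour of H19, also did not pass the test (log2 fold change -0.01, SE 0.13, adjusted p = 0.980).

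**Figure D1:**
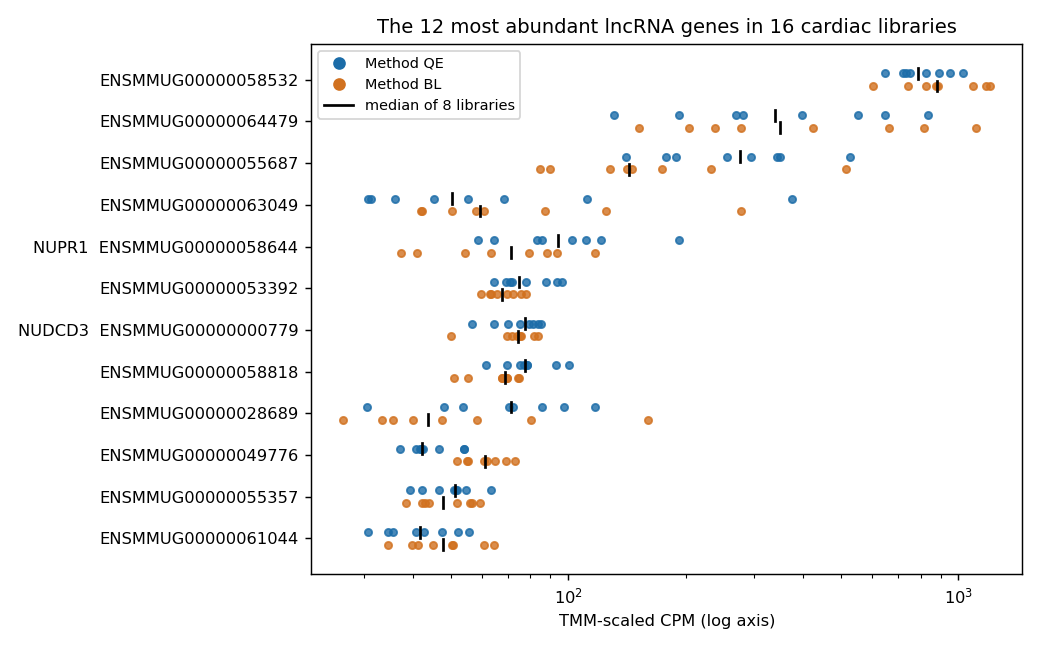
TMM-scaled CPM (horizontal log axis) of the 12 most abundant lncRNA genes in each of 8 Method QE and 8 Method BL libraries, with the median of each group as a black bar. The groups overlapped for every gene shown, with ENSMMUG00000058532 between 603 and 1206 CPM.

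The third gene of the order, ENSMMUG00000055687 (chr14:39885086-39886264, plus strand), is the gene with the mitochondrial sequence shown above. It ran from 141 to 527 CPM (median 275) with Method QE and from 84.9 to 514 CPM (median 144) with Method BL, and 7 of 8 animals had the higher value by Method QE, without passing the test (log2 fold change 0.78, SE 0.31, adjusted p = 0.205). The exception was r15045, with 141 CPM by Method QE and 514 CPM by Method BL. ENSMMUG00000028689 (chr2:68782805-68790067, plus strand) ran from 30.5 to 117 CPM (median 71.3) with Method QE and from 26.6 to 160.0 CPM (median 43.8) with Method BL, and 6 of 8 animals had the higher value by Method QE, all but r15045, at 30.5 against 160.0 CPM, and r16010, at 70.5 against 80.3 CPM (log2 fold change 0.46, SE 0.33, adjusted p = 0.502). ENSMMUG00000049855 (chr8:49534783-49546284, minus strand) was higher by Method QE in 5 of 8 animals, all but r15045, r16010 and rhbi30, and gave 5.31 against 32.9 CPM in r15045 (log2 fold change 0.27, SE 0.36, adjusted p = 0.733). Genes of the mitochondrial genome took 27.4 to 44.4% of the counts with Method QE and 20.5 to 39.3% with Method BL. In r15045 the share was 27.4% with Method QE and 39.3% with Method BL. The direction of the method difference of this share was the direction of ENSMMUG00000028689 in 8 of 8 animals and of each of the other 2 genes in 7 of 8. Within 20 kb of ENSMMUG00000055687 stood the coding rows ENSMMUG00000054416 and ENSMMUG00000063316. Their mean CPM, here not scaled by TMM factors, was 4417 and 2118, and the mitochondrial shares of their 31-base words were 100% and 96.8%. How much of the counts of these genes came from mitochondrial RNA was not tested.

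The next genes of the order had lower levels. ENSMMUG00000063049 (chr10:80460932-80465510, plus strand), over the RefSeq lncRNA gene LOC107000390 and nearest to SLPI, a secreted protease inhibitor, ran from 30.8 to 375 CPM (median 50.3) with Method QE and from 42.1 to 277 CPM (median 59.5) with Method BL, and the high end was a single animal described below. ENSMMUG00000053392 (chr14:8545574-8548488, minus strand) lies partly over BANF1, a chromatin-binding protein, and starts 37 bases from EIF1AD in the opposite direction (log2 fold change 0.20, SE 0.08, adjusted p = 0.206). ENSMMUG00000058818 (chr4:64548816-64624360, plus strand) ends 20 bases before the table's TULP4 and lies inside the RefSeq TULP4 gene. All 8 animals had the higher value by Method QE, short of the threshold (log2 fold change 0.25, SE 0.07, adjusted p = 0.0702). The log2 fold change of TULP4 itself was 0.22 (adjusted p = 0.170). ENSMMUG00000055357 (chr10:72044005-72047076, minus strand) lies inside SOGA1 and within another gene of the set, ENSMMUG00000053555, on the same strand for all of its 3072 bases, so their reads cannot be assigned to one or the other with certainty. ENSMMUG00000061044 (chr16:1565578-1570309, minus strand), inside the RefSeq TLCD2 gene, had the lower value by Method QE in 7 of 8 animals without passing the test (log2 fold change -0.19, SE 0.07, adjusted p = 0.184).

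Between methods, 15 of the 131 genes were lower and 2 were higher with Method QE at an adjusted p under 0.05 by the quasi-likelihood test of edgeR with a term for the animal, and all 131 passed the filter on low counts. Lower calls made up 11.5% of the lncRNA genes, against 1.28% of all 14165 genes tested. Higher calls made up 1.53%, against 0.854% of all genes. Among coding genes, 1.06% were lower and 0.861% higher, and among those with a mean of at least 5 CPM, 1.29% were lower and 1.19% higher. Among the 387 tested lncRNA genes under the CPM limit, 1.55% were lower and none was higher. The median log2 fold change was -0.17 over the 131 genes, 0.00 over all genes, 0.03 over these coding genes and -0.24 over the less abundant lncRNA genes. Of the 131, 89 had a fold change below 0, against 6986 of all 14165 genes and 4042 of the 9409 coding genes of at least 5 CPM. Of the 387 less abundant lncRNA genes 300 were below 0. In all 8 animals, 18 of the 131 were lower with Method QE and 4 were higher, which was not counted for other genes. Without r15089, r16010, r16116 or rh2740, 2 of the 131 were called lower in each case and calls over all genes fell too, but 39 to 52 were lower at an unadjusted p under 0.05, against 51 with all animals, and the median log2 fold change was -0.19 to -0.14. Without the term for the animal none was called, with 24 lower and 4 higher at an unadjusted p under 0.05. The names of the Method BL libraries end in B for 5 animals and in R for 3, which the labels do not explain. In the 5 animals 3 genes were lower and 2 higher, and in the 3 animals none was called, with 18 lower and 4 higher at an unadjusted p under 0.05. With the column totals as the only scaling, an alternative chosen after the data were seen, the median of all genes moved to -0.24 and 40 of the 131 were lower and none higher.

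By the RefSeq gene on the same strand, the classes overlapped widely. The 15 genes with the span of a RefSeq coding gene had log2 fold changes from -0.30 to 0.53 (median 0.03), and both genes called higher and none of those called lower were among them. The medians of the other classes were -0.17 inside a coding gene (33 genes, 3 lower), -0.17 partly over one (11 genes, 2 lower), -0.24 over a pseudogene (6 genes, 1 lower), -0.18 over a lncRNA gene (41 genes, 6 lower) and -0.23 with no RefSeq gene (25 genes, 3 lower). The difference between classes was not tested, and genes are not replicates. Without the 15 genes of coding span, 15 of 116 were lower and 0 were higher.

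**Figure D2:**
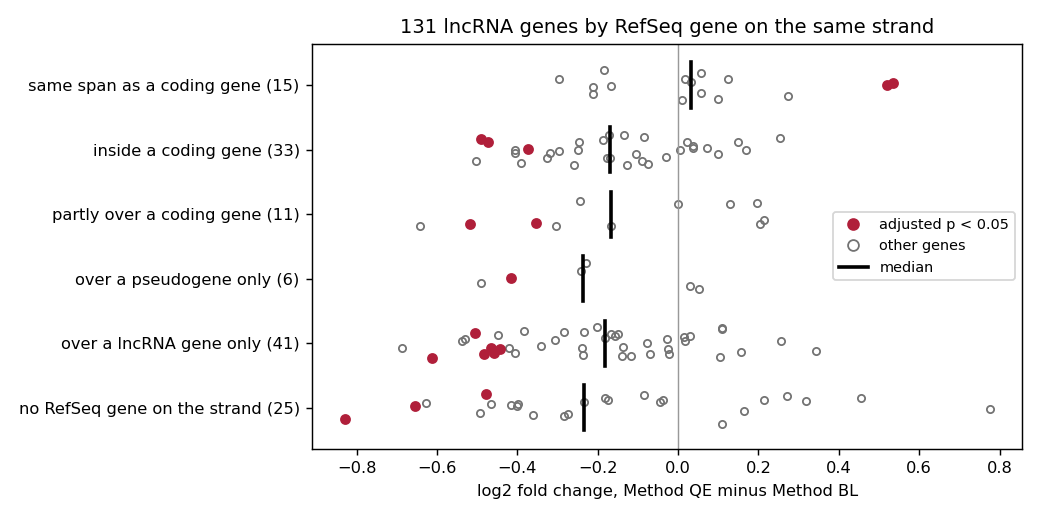
Log2 fold change of each of the 131 lncRNA genes (horizontal axis, Method QE minus Method BL) by the RefSeq gene on the same strand, with the number of genes in parentheses, filled red points past the threshold and the class median as a black bar. Both genes called higher have the span of a RefSeq coding gene, and the class medians of the other rows lie between -0.24 and -0.17.

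Other properties of the genes varied with the method difference only weakly. Across the 131 genes, Spearman's rho of the log2 fold change was -0.03 with GC content of the span, -0.24 with span length, 0.21 with mean CPM and 0.26 with the share of the span in RefSeq mRNA exons, where all points share the same 16 libraries. GC content ran from 32.5 to 64.4% (median 44.7%). The median log2 fold change was -0.21 for the 51 genes under 10 CPM, -0.15 for the 64 between 10 and 30 CPM and 0.02 for the 13 between 30 and 100 CPM. It was -0.22 for the 72 genes with no RefSeq coding gene on their strand and 0.00 for the 34 that hold coding sequence. The genes lay on all autosomes but chromosome 15 and on chromosome X, with 11 each on chromosomes 10 and X, and 5 lay on unplaced scaffolds. Apart from the pair in SOGA1, ENSMMUG00000063391 and ENSMMUG00000064937 overlapped on the same strand and ENSMMUG00000040661 and ENSMMUG00000059918 on opposite strands, so the reads of these pairs cannot be told apart with certainty.

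The most abundant gene called lower was ENSMMUG00000049776 (chrX:71367176-71382648, minus strand), which holds the microRNA genes shown above. It ran from 37.03 to 54.2 CPM (median 42.2) with Method QE and from 51.8 to 72.9 CPM (median 61.4) with Method BL. The groups overlapped only between 51.8 and 54.2 CPM, every animal was lower with Method QE, and the call held when any 1 animal was left out (log2 fold change -0.46, SE 0.07, adjusted p = 0.0145). The other gene that holds a microRNA, ENSMMUG00000050591 with MIR125B-1, did not pass the test (log2 fold change 0.16, SE 0.08, adjusted p = 0.301). Of the 7 genes that hold snoRNA genes, 1 was called lower, ENSMMUG00000060229 (chr1:31163206-31167483, minus strand), over the RefSeq lncRNA gene LOC106994756, which holds 10 snoRNA genes. It ran from 4.38 to 10.01 CPM (median 6.20) with Method QE and from 6.38 to 11.8 CPM (median 9.68) with Method BL, and 7 of 8 animals had the lower value by Method QE, with r12075 as the exception at 10.01 against 9.57 CPM (log2 fold change -0.51, SE 0.11, adjusted p = 0.0372). The ENSMMUG00000060229 call was lost when any single animal but r12075 was left out. ENSMMUG00000064025, with 18 snoRNA genes and nearest to SNRPN, did not pass the test (log2 fold change -0.12, SE 0.08, adjusted p = 0.467).

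The largest decrease among the 15 was that of ENSMMUG00000059468 on an unplaced scaffold, with no RefSeq gene on its strand. It ran from 3.02 to 7.64 CPM (median 5.03) with Method QE and from 5.30 to 14.5 CPM (median 9.01) with Method BL, lower in 8 of 8 animals (log2 fold change -0.83, SE 0.14, adjusted p = 0.0157). ENSMMUG00000056497 (chr5:55116850-55131351, minus strand), also without a RefSeq gene and nearest to ANXA3, ran from 3.20 to 15.1 CPM (median 5.53) with Method QE and from 5.81 to 20.6 CPM (median 8.40) with Method BL. Both high ends were r12075, and all 8 animals were lower with Method QE (log2 fold change -0.66, SE 0.12, adjusted p = 0.0191). ENSMMUG00000053188 (chr19:40759454-40772746, minus strand), over LOC114674155, ran from 1.06 to 41.2 CPM (median 29.2) with Method QE and from 2.37 to 94.8 CPM (median 40.1) with Method BL and was lower in 8 of 8 animals (log2 fold change -0.61, SE 0.11, adjusted p = 0.0191). Its levels ranged widely between animals, and the methods overlapped over most of that range. ENSMMUG00000060576 (chr3:33047657-33179692, minus strand), which lies partly over the RefSeq coding gene LOC100429133, ran from 17.3 to 42.2 CPM (median 20.8) with Method QE and from 27.04 to 48.5 CPM (median 31.8) with Method BL. It too was lower in 8 of 8 animals (log2 fold change -0.52, SE 0.10, adjusted p = 0.0246).

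ENSMMUG00000050139 (chr13:84472258-84475950, minus strand), inside the RefSeq coding gene LOC114671808, ran from 9.84 to 13.3 CPM (median 12.4) with Method QE and from 13.4 to 20.6 CPM (median 16.98) with Method BL. Its groups did not overlap, since its highest Method QE value was below its lowest Method BL value (log2 fold change -0.49, SE 0.09, adjusted p = 0.0180). ENSMMUG00000063394 (chr19:34279108-34283985, plus strand), over LOC106994723 and nearest to ZNF30, ran from 7.69 to 11.4 CPM (median 9.11) with Method QE and from 9.61 to 15.7 CPM (median 13.4) with Method BL and was lower in 8 of 8 animals (log2 fold change -0.48, SE 0.10, adjusted p = 0.0307). ENSMMUG00000058039 (chr8:145565870-145572116, plus strand), with no RefSeq gene on its strand, ran from 10.5 to 26.3 CPM (median 12.6) with Method QE and from 11.6 to 35.5 CPM (median 19.1) with Method BL. 7 of 8 animals had the lower value by Method QE, and the values of r15045 were 11.7 and 11.6 CPM (log2 fold change -0.48, SE 0.09, adjusted p = 0.0191). ENSMMUG00000062673 ran from 16.4 to 34.7 CPM (median 17.9) with Method QE and from 20.7 to 40.2 CPM (median 28.1) with Method BL, and ENSMMUG00000060545 ran from 12.3 to 26.5 CPM (median 21.1) with Method QE and from 18.3 to 43.4 CPM (median 28.3) with Method BL. Both were lower in 8 of 8 animals, with log2 fold changes of -0.47 and -0.42. The first lies inside the RefSeq coding gene LOC106997991 and holds coding sequence of it, and the second stands 1271 bases from RHOF, a small GTPase, and over a RefSeq pseudogene. These 2 and the lncRNA genes at PDCD2, PCBP1, UTRN and MDM4 lie outside the rule for named genes and were chosen after their values were seen. The ENSMMUG00000060545 call was lost when any single animal but r15045 was left out.

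**Figure D3:**
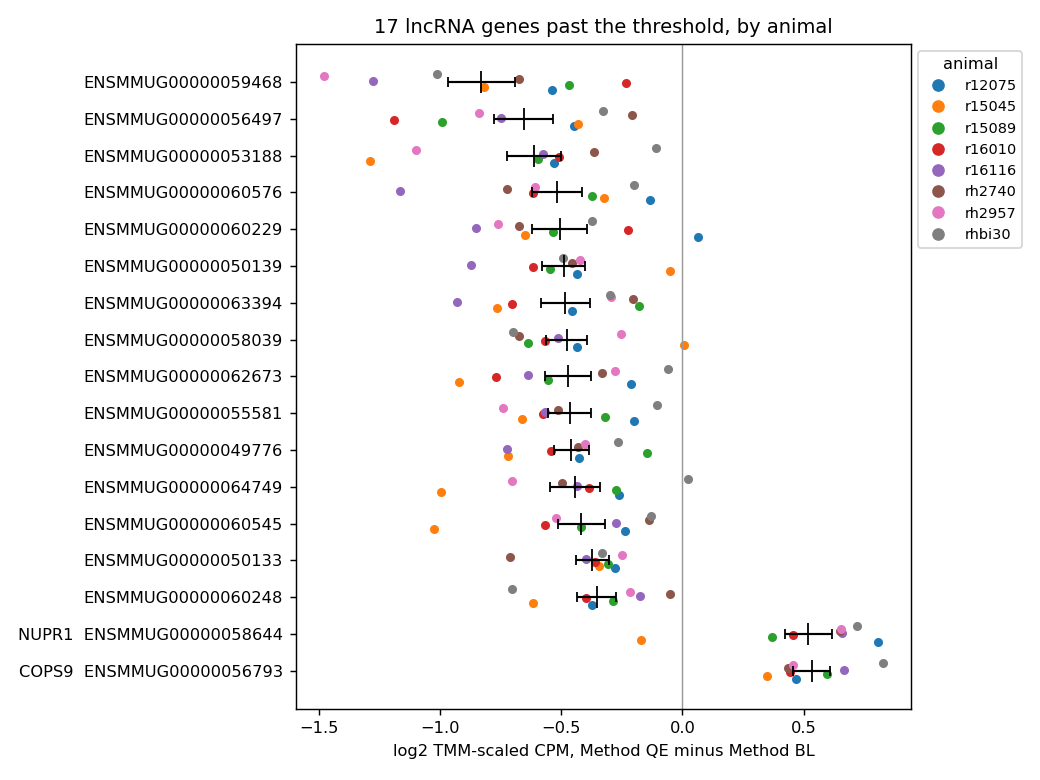
Difference of log2 TMM-scaled CPM, Method QE minus Method BL, in each of 8 animals (coloured points) for the 17 lncRNA genes past the threshold, with the fitted log2 fold change and its SE in black. All points of 12 of the 15 genes called lower lie left of 0, and for NUPR1 the point of r15045 lies on the other side from the rest.

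Both genes called higher have the span of a RefSeq coding gene. COPS9 (ENSMMUG00000056793, chr12:127509349-127515912, minus strand), a subunit of the COP9 signalosome, ran from 14.4 to 20.2 CPM (median 17.7) with Method QE and from 9.18 to 14.9 CPM (median 12.2) with Method BL. All 8 animals had the higher value by Method QE, and the groups overlapped only between 14.4 and 14.9 CPM (log2 fold change 0.53, SE 0.08, adjusted p = 0.00695). NUPR1 (ENSMMUG00000058644, chr20:27051955-27053994, minus strand), a small nuclear protein induced by stress, ran from 58.7 to 193 CPM (median 93.99) with Method QE and from 37.2 to 117 CPM (median 71.4) with Method BL. It was higher in 7 of 8 animals, with r15045 as the exception at 83.2 and 93.6 CPM (log2 fold change 0.52, SE 0.10, adjusted p = 0.0191). The COPS9 call held when any animal was left out, and the NUPR1 call was lost without r15089, r16010, r16116 or rh2740.

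The other 11 genes with a symbol carry symbols of coding genes, and none passed the test. NUDCD3, a cochaperone of dynein, had a log2 fold change of 0.04, MANBAL of 0.02 and TMEM167B, a membrane protein of the Golgi, of 0.01. LY6E, a lipid-anchored surface protein, MCRIP1, a partner of transcriptional corepressors, and NBDY, a microprotein of RNA decapping bodies, had 0.06, 0.10 and 0.06. POLR2K, a subunit that the RNA polymerases share, had 0.03 and SMIM8 0.12. LSM3, a subunit of the U6 small nuclear ribonucleoprotein, ran from 12.8 to 18.5 CPM (median 14.5) with Method QE and from 10.6 to 15.1 CPM (median 12.2) with Method BL and was higher in 7 of 8 animals, short of the threshold (log2 fold change 0.27, SE 0.08, adjusted p = 0.0953). CDC42EP2, an effector of the GTPase CDC42, and FAM200B had fold changes below 0, at -0.21 and -0.30 on the log2 scale, and FAM200B was lower in 7 of 8 animals.

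The ratio of a lncRNA gene to the coding gene at the same place shows whether their levels moved together. Such a partner with its own tested row was found for 53 of the 131 genes, 24 with the RefSeq coding gene over them on the same strand, 25 with a divergent neighbour and 4 with a neighbour on the same strand. None of the partners was called in either direction. Among all coding genes tested 1.06% were lower and 0.861% higher, so no call among 53 partners is near that share. Of the 53 lncRNA genes 6 were called lower, near the 11.5% of all 131. The median log2 fold change was -0.17 for the lncRNA genes and 0.00 for the partners. The log2 ratio of lncRNA gene to partner (CPM plus 0.5) had a median difference of -0.12 between Method QE and Method BL and was below 0 in 38 of 53 pairs. In a two-sided exact permutation test that flips the sign of each pair, with p not adjusted over the 53 pairs, 14 ratios were lower with Method QE and 2 were higher at a p of at most 0.05, where 8 pairs can give no p below 0.00781. Medians were -0.22 for divergent neighbours (19 of 25 below 0), -0.10 for genes inside or over the RefSeq coding gene (16 of 24) and -0.08 for neighbours on the same strand (3 of 4).

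The lncRNA genes that follow were picked because they were already called lower in the same 8 pairs. Their ratio tests reuse those differences, so a lower ratio is not separate support. The gene at UTRN, which encodes utrophin, a link between the actin cytoskeleton and the membrane of muscle cells, was ENSMMUG00000050133 (chr4:48065548-48072351, plus strand). This lncRNA gene lies at least in part inside the RefSeq UTRN gene on the same strand, and whether its reads came from UTRN transcripts was not tested. It ran from 16.3 to 23.1 CPM (median 20.9) with Method QE and from 23.6 to 28.3 CPM (median 26.96) with Method BL, with no overlap of the groups (log2 fold change -0.37, SE 0.07, adjusted p = 0.0191), while UTRN had a log2 fold change of -0.05. The ratio changed by -0.31 (SD 0.18, n = 8, lower in 7 of 8, exact p = 0.0156). ENSMMUG00000055581 (chr4:44752-71517, minus strand) starts opposite to PDCD2, a factor of ribosome assembly, across the gap shown above. It ran from 6.40 to 14.5 CPM (median 9.70) with Method QE and from 9.18 to 21.5 CPM (median 13.3) with Method BL, lower in 8 of 8 animals (log2 fold change -0.47, SE 0.09, adjusted p = 0.0225), and its ratio to PDCD2 changed by -0.53 (SD 0.45, n = 8, lower in 7 of 8, exact p = 0.0234). ENSMMUG00000064749 (chr13:38681449-38820398, plus strand) starts opposite to PCBP1, which binds poly(C) tracts of RNA. It ran from 8.30 to 15.9 CPM (median 11.2) with Method QE and from 13.6 to 21.1 CPM (median 15.6) with Method BL, lower in 7 of 8 animals (log2 fold change -0.44, SE 0.10, adjusted p = 0.0427), with a ratio change of -0.32 (SD 0.38, n = 8, lower in 7 of 8, exact p = 0.0469). The ENSMMUG00000064749 call was lost when any single animal but rhbi30 was left out. ENSMMUG00000060248, partly over MDM4, a regulator of p53, ran from 17.1 to 27.3 CPM (median 20.3) with Method QE and from 21.4 to 30.8 CPM (median 26.5) with Method BL and was lower in 8 of 8 animals (log2 fold change -0.35, SE 0.08, adjusted p = 0.0407), but MDM4 had a fold change of the same sign, -0.21 on the log2 scale, and the ratio change did not pass the test, at -0.14 (SD 0.33, n = 8, lower in 4 of 8, exact p = 0.250). The ENSMMUG00000060248 call was lost whichever of the 8 animals was left out.

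In 6 further pairs the ratio was lower in all 8 animals, each with the smallest p the test can give, 0.00781, although neither gene of the pair was called. The partner was SEMA5A, an axon guidance receptor, PCNP or TMEM50A in divergent orientation, or it was FGF12, an intracellular regulator of sodium channels, WDR33, a subunit of the cleavage and polyadenylation complex, or RBM25, a splicing regulator, with the lncRNA gene inside it. The largest of these changes was at PCNP, -0.69 (SD 0.48, n = 8), and the smallest at WDR33, -0.29 (SD 0.17, n = 8). The 2 ratios that were higher with Method QE were LSM3 to XPC, a DNA repair gene, with 0.15, and ENSMMUG00000063600 to CCDC134 with 0.32 (exact p = 0.0391 for each). These pairs were chosen by their p after the values were seen.

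**Figure D4:**
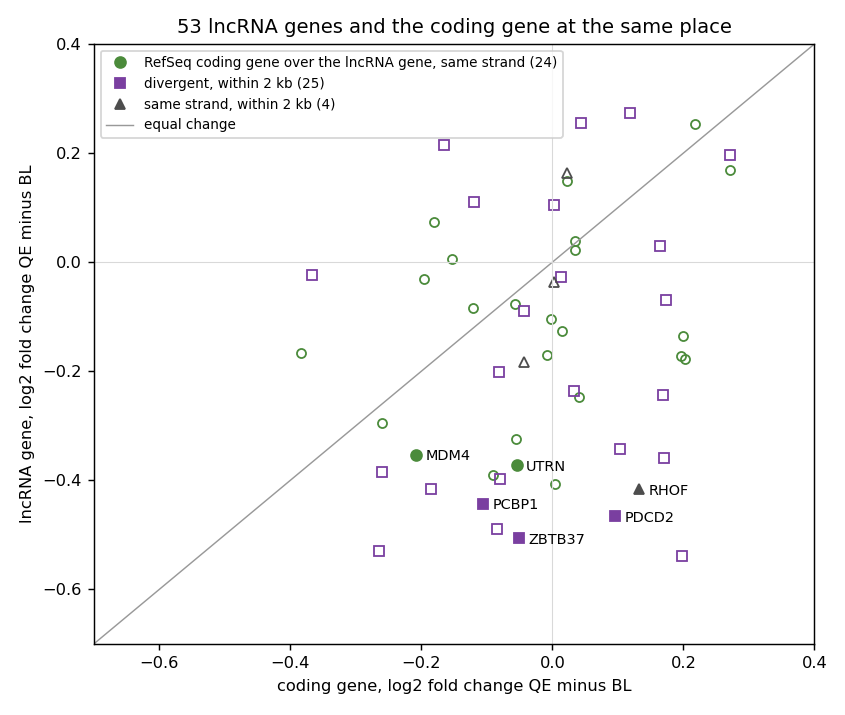
Log2 fold change, Method QE minus Method BL, of 53 lncRNA genes (vertical axis) against that of the coding gene at the same place (horizontal axis), with filled symbols for lncRNA genes past the threshold and the line of equal change. The 6 filled symbols lie below the line, and the coding genes of the pairs have a median of 0.00.

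More genes differed between animals than between methods. In the same fit, 72 of the 131 genes, 55.00%, differed between animals at an adjusted p under 0.05, against 31.5% of all genes and 34.8% of coding genes with a mean of at least 5 CPM. The share was 31.4% of all coding genes and 29.7% of the lncRNA genes under the limit. With 1 animal left out, 54 to 76 of the 131 were called, and with column totals as the only scaling 46. Between the highest and the lowest animal, the mean log2 level of the 2 libraries differed by a median of 0.96 over the 131 genes, and 21 genes differed by more than 2 on that scale. The spread behind this test is that between the 2 extractions of an animal. Fewer cells of a type and less RNA per cell cannot be told apart in such bulk samples.

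The smallest p belonged to ENSMMUG00000058834 (chr5:149669874-149695066, plus strand), with no RefSeq gene on its strand. By Method QE and Method BL it gave 0.636 and 0.385 CPM in r16116, 13.9 and 13.4 CPM in r15045, 19.1 and 17.8 CPM in r16010 and 12.5 and 8.63 CPM in rh2957. It gave 49.6 and 41.6 CPM in r12075, 50.9 and 45.6 CPM in r15089, 43.7 and 41.2 CPM in rh2740 and 47.6 and 40.2 CPM in rhbi30. The levels thus formed 3 separate ranges, and both extractions of each animal fell in the same one (adjusted p = 8.9e-09, edgeR). ENSMMUG00000063049 gave 375 and 277 CPM in rh2957, against 112 and 125 CPM in r12075, the next animal, and 30.8 and 42.1 CPM in r16116, the lowest (adjusted p = 7.37e-07, edgeR). ENSMMUG00000053188 went the other way in the same animal, with 1.06 and 2.37 CPM in rh2957 and at least 17.1 CPM in every other library (adjusted p = 1.7e-06, edgeR). Leukocyte markers summed to 336 and 436 CPM in rh2957, the highest of all animals, and to 85.05 to 275 CPM in the others. Cardiomyocyte markers were lowest in the same animal by each method, at 98578 and 65097 CPM. Adipocyte markers were highest in it, at 997 and 1034 CPM, but r16010 was close, at 969 and 1019 CPM. Most of the adipocyte sum was LPL, with means of 610 CPM by Method QE and 553 CPM by Method BL. Every other marker of that list averaged at most 26.2 CPM by either method. The part of these cells in the differences of rh2957 was not tested.

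ENSMMUG00000049951 (chrX:70956731-70968017, minus strand), over LOC106995245, had counts in all libraries of 4 animals and hardly any in the other 4. It gave 29.8 and 27.2 CPM in r12075, 16.03 and 26.7 CPM in r16010, 14.2 and 23.6 CPM in rh2740 and 26.3 and 30.1 CPM in rhbi30. In r15045, r15089 and rh2957 it had 0 counts by both methods, and in r16116 it had 0 by Method QE and 9 counts by Method BL (0.495 CPM). A count of 0 allows up to 3 counts, which is 0.108 to 0.210 CPM in these 7 libraries, by counting error only. The 30 rows of chromosome Y summed to 106 to 189 CPM in the first 4 animals and to 555 to 663 CPM in the other 4. The labels give no sex, and the gene was not tested against it.

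ENSMMUG00000059518 (chr12:94713288-94742173, plus strand), over LOC106992703 and nearest to KLF7, was highest in r15045, with 16.9 and 18.3 CPM, and lowest in rh2957, with 2.00 and 1.76 CPM (adjusted p = 7.11e-06, edgeR). ENSMMUG00000051221 (chr1:35298064-35317149, plus strand), over LOC106994474 and nearest to RASAL2, was highest in rh2957, with 37.6 and 35.8 CPM, and lowest in rh2740 and r16010 (adjusted p = 1.55e-05, edgeR). Neither passed the test between methods, with log2 fold changes of 0.01 and 0.02. The gene inside H19 ranged from 131 and 152 CPM in r12075 to 834 and 1108 CPM in rh2957 (adjusted p = 9.78e-05, edgeR), and IGF2 also differed between animals (adjusted p = 0.00189). Of the 17 genes called between methods, 9 also differed between animals, a share near the 55.0% of all 131 genes.

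**Figure D5:**
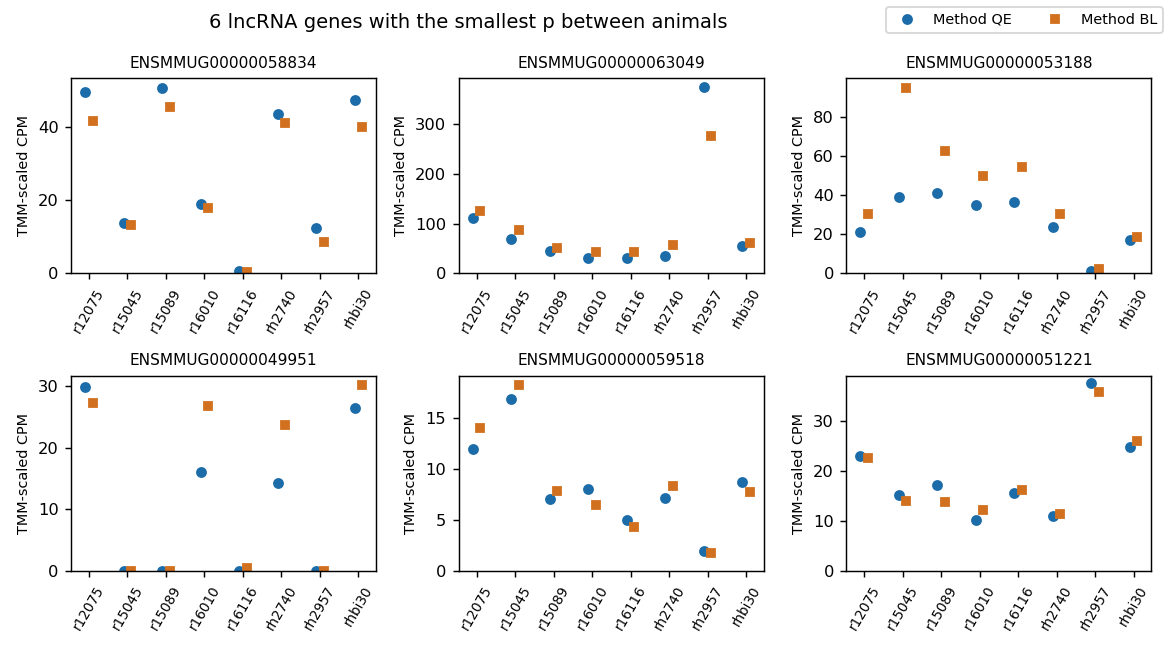
TMM-scaled CPM (vertical axis from 0) of the 6 lncRNA genes with the smallest p between animals, by animal (horizontal axis), with Method QE as circles and Method BL as squares. In ENSMMUG00000058834 both extractions of each animal lie close together, with r16116 at 0.636 and 0.385 CPM and r15089 at 50.9 and 45.6 CPM.

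Of a list of proteins of paraspeckles, nuclear bodies built on a lncRNA, and of nuclear speckles, which store splicing factors, 15 coding genes were tested, and 5 were lower with Method QE and none higher, where 1.29% of the coding genes with a mean of at least 5 CPM were lower. They were SRRM2 (log2 fold change -0.45, SE 0.10, adjusted p = 0.0458), SON (log2 fold change -0.28, SE 0.06, adjusted p = 0.0406), SRSF3 (log2 fold change -0.27, SE 0.06, adjusted p = 0.0339), SFPQ (log2 fold change -0.27, SE 0.06, adjusted p = 0.0494) and RBM14 (log2 fold change -0.25, SE 0.06, adjusted p = 0.0405). SRRM2 and SON build nuclear speckles, SRSF3 is a splicing factor, and SFPQ and RBM14 are paraspeckle proteins. The list was chosen with earlier results of these data known, so the 5 of 15 is a description and not separate support. The median log2 fold change of the 15 was -0.11. The summed CPM of the list was 2334 to 3102 with Method QE and 2914 to 3269.9 with Method BL. This sum was lower with Method QE in all 8 animals. SRRM2 alone averaged 719 CPM with Method QE and 948 CPM with Method BL, so much of the difference of the sums was SRRM2. No gene of the list was called without r15089, r16010, r16116 or rh2740. In these runs the list median was -0.11 to -0.090 and calls over all genes fell too. Of 12 genes of nuclear RNA decay and retention, 1 was lower, NXF1, the main mRNA export receptor (log2 fold change -0.29, SE 0.07, adjusted p = 0.0442), and the median was 0.00.

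The 131 genes together took 0.330% of the counts with Method QE (SD 0.0565, n = 8, range 0.267 to 0.446%) and 0.411% with Method BL (SD 0.0960, n = 8, range 0.333 to 0.610%). 7 of 8 animals had the smaller share by Method QE, all but r15045, and the mean difference was -0.0817 percentage points (SD 0.0622, n = 8). No test was made on this sum. With the mitochondrial genome left out of the total, 6 of 8 animals had the smaller share by Method QE.

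The libraries held 19291593 to 25690001 counts with Method QE and 14999179 to 25807216 with Method BL. The markers that define the labelled tissue were present: the 9 cardiomyocyte markers in the table were all tested and summed to 98578 to 168156 CPM with Method QE and 65097 to 159529 CPM with Method BL. Endothelial markers summed to 544 to 914 CPM with Method QE and 478 to 784 CPM with Method BL, smooth muscle and pericyte markers to 557 to 962 CPM with Method QE and 555 to 800.1 CPM with Method BL, fibroblast markers to 729 to 4487 CPM with Method QE and 693 to 6599 CPM with Method BL, leukocyte markers to 98.1 to 336 CPM with Method QE and 85.05 to 436 CPM with Method BL and adipocyte markers to 325 to 997 CPM with Method QE and 321 to 1034 CPM with Method BL. Erythrocyte markers summed to 9.85 to 99.6 CPM with Method QE and 15.97 to 97.4 CPM with Method BL. Mesothelial markers varied most, from 1.09 to 389 CPM with Method QE and from 28.7 to 262 CPM with Method BL, and their sum was lower with Method QE in 6 of the 8 animals. No marker gene of any of the 8 lists was called between methods. The part of these cells in the lncRNA differences was not tested.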

How the data were processed

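Total RNA of 16 libraries was depleted of rRNA and sequenced from stranded libraries. The authors aligned reads with STAR 2.7.8a to Mmul_10 and made estimated counts per gene in Partek from Ensembl transcripts. These estimated counts stand in the deposited table without normalization, and 76.7% of its values were whole to within 1e-06. The use of strand in counting is not given in the sources used here, so overlapping genes are uncertain. Of 13614 genes compared with RefSeq, Stop was the RefSeq end plus 1 in 875 and the end itself in 142, so Stop was read as 1 past the last base, and ends are Stop minus 1. No column of other samples was present. 1 entry broken over 3 lines was joined.

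Counts were rounded and tested in edgeR 4.0.16 (R 4.3.3): filterByExpr, TMM, quasi-likelihood F test with animal and method, Benjamini-Hochberg over 14165 genes, threshold 0.05. The SE is the log2 fold change over the root of F. The fit was tested on simulated data. Animals were paired by the library names, and 16 of 16 libraries had their best correlation with the second library of the same animal (pair r 0.345 to 0.637 across genes, group means removed). Ratios were tested by exact paired sign-flip in Python 3.11.15. Nothing in the labels says the 2 extractions were repeated, so p-values rest on the spread between 8 pairs.

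Genes named by the rule are those with a symbol, the 12 most abundant, up to 8 per direction with the largest fold change, the 6 with the smallest p between animals, and their coding partners. ENSMMUG00000049855, ENSMMUG00000050591 and ENSMMUG00000064025 lie outside this rule and were named for mitochondrial, microRNA or snoRNA sequence. Others outside it are marked, or named for a limit, overlap or ratio given where they appear. The genes, lists and tests were chosen with earlier results of these data known. Alternatives were other scalings (median of ratios, upper quartile, TMM without mitochondrial genes, column totals), no animal block, DESeq2 1.42.0, limma-voom (limma 3.58.1), other filters and CPM limits, another pseudocount, and each animal or group of names left out.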

Additional observations from a re-analysis of the deposited data

Results flagged for a closer look

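Within each method, the 8 libraries of a named gene were checked for a highest or lowest value that stands apart from the rest by more than Dixon's 95% limit for 8 values. Chance flags about 1 in 20 groups if groups are independent and values normal, and 13 values were found in 84 groups of 42 genes. These genes include some picked for differences between animals, and both methods share the animals. The 13 therefore cannot be measured against that rate. For ENSMMUG00000055687, the highest value with Method BL was 514 CPM in r15045 (next 233, group median 144, gap 0.655 of the range). For ENSMMUG00000063049, the highest value with Method QE was 375 CPM in rh2957 (next 112, group median 50.3, gap 0.765 of the range) and the highest value with Method BL was 277 CPM in rh2957 (next 125, group median 59.5, gap 0.646 of the range). For NUPR1 (ENSMMUG00000058644), the highest value with Method QE was 193 CPM in rhbi30 (next 122, group median 93.99, gap 0.531 of the range). For NUDCD3 (ENSMMUG00000000779), the lowest value with Method BL was 50.2 CPM in rh2957 (next 69.9, group median 74.5, gap 0.586 of the range). For ENSMMUG00000028689, the highest value with Method BL was 160.0 CPM in r15045 (next 80.3, group median 43.8, gap 0.598 of the range). For ENSMMUG00000060576, the highest value with Method QE was 42.2 CPM in rhbi30 (next 25.95, group median 20.8, gap 0.652 of the range). For ENSMMUG00000060545, the highest value with Method BL was 43.4 CPM in r15045 (next 30.1, group median 28.3, gap 0.531 of the range). For ENSMMUG00000050133, the lowest value with Method BL was 23.6 CPM in r15089 (next 26.6, group median 26.96, gap 0.631 of the range). For ENSMMUG00000060248, the highest value with Method QE was 27.3 CPM in r16116 (next 21.8, group median 20.3, gap 0.530 of the range). For ENSMMUG00000056497, the highest value with Method QE was 15.1 CPM in r12075 (next 6.92, group median 5.53, gap 0.688 of the range) and the highest value with Method BL was 20.6 CPM in r12075 (next 12.5, group median 8.40, gap 0.546 of the range). For ENSMMUG00000057269, the highest value with Method BL was 7.82 CPM in rhbi30 (next 5.77, group median 5.21, gap 0.601 of the range).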

How the results depend on the processing

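The main calls (15 lower, 2 higher, 72 between animals) rest on the animal block: without the block, 0 were lower and 0 higher, with 24 and 4 at an unadjusted p under 0.05 (edgeR). Lower and higher calls were 25 and 3 by DESeq2, 3 and 2 in the 5 animals with a Method BL name ending in B, and 0 and 0 in the 3 ending in R (18 and 4 unadjusted). Column totals alone gave 40 and 0, and 46 between animals. With 1 animal left out, lower calls ran from 2 to 15 and higher calls from 1 to 4. Without r15089, r16010, r16116 or rh2740, 39 to 52 were lower at an unadjusted p under 0.05, the 2 left were ENSMMUG00000049776 and ENSMMUG00000059468, or ENSMMUG00000056497 in place of the latter without rh2740, and calls over all genes fell from 182 to between 22 and 39 lower. The 4 higher calls arose without r15045. All 15 stayed lower with each other scaling, DESeq2 and limma-voom. Without the genes of coding span, 0 were higher. The summed share and the median ratio to the coding partner changed by less than their spread in each alternative run. Of 797 fold changes of the 42 named genes recomputed under the alternatives, 630 kept direction and call, 119 lost the call, 4 gained one and 44 changed sign, none of a gene that had been called. The cause was not tested. In the 3 animals ending in R, the log2 values were 0.21 for ENSMMUG00000064479, -0.071 for ENSMMUG00000028689, -0.045 for LY6E, -0.040 for ENSMMUG00000059518, 0.082 for ENSMMUG00000057269. Without the block, the log2 values were 0.022 for ENSMMUG00000063049, -0.029 for ENSMMUG00000059518. With column totals only, the log2 values were -0.041 for ENSMMUG00000053392, -0.20 for NUDCD3, -0.20 for ENSMMUG00000055357, -0.23 for TMEM167B, -0.0020 for ENSMMUG00000058834, -0.18 for LY6E, -0.22 for ENSMMUG00000051221, -0.14 for MCRIP1, -0.22 for MANBAL, -0.21 for POLR2K, -0.18 for NBDY, -0.21 for ENSMMUG00000059518, -0.12 for SMIM8. In the 5 ending in B, the log2 values were -0.026 for NUDCD3, -0.021 for ENSMMUG00000055357, -0.052 for TMEM167B, -0.075 for ENSMMUG00000051221. With upper quartile scaling, the log2 values were -0.015 for TMEM167B, -0.0066 for ENSMMUG00000051221, -0.0078 for MANBAL, -0.0068 for ENSMMUG00000059518. By limma-voom, the log2 values were -0.0065 for ENSMMUG00000059518. With 1 animal left out, they ran from -0.025 to 0.098 for NUDCD3, -0.039 to 0.10 for ENSMMUG00000055357, -0.016 to 0.072 for TMEM167B, -0.0016 to 0.11 for LY6E, -0.025 to 0.059 for ENSMMUG00000051221, -0.032 to 0.082 for MANBAL, -0.012 to 0.065 for POLR2K, -0.024 to 0.053 for ENSMMUG00000059518. Depth limits the least abundant genes, since 5 CPM is at most 129 reads in a library.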
